A study of Rattus norvegicus with 18 samples.

Results

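Amyloid-β42 (Aβ42) fibrils changed the RNA of primary rat astrocytes and microglia in part in opposite ways. The difference between the 2 responses was measured for each gene as the log2 fold change of astrocytes (Aβ42 over control) minus that of microglia (Aβ42 over control), which is the interaction of cell type and treatment. It was tested for 11581 gene symbols of the 16704 shared by the files of both cell types, and its groups hold 12 of the 18 libraries, 3 each of control astrocytes, astrocytes with Aβ42, control microglia and microglia with Aβ42. Both cell types came from cortical tissue of Sprague Dawley rat pups at postnatal day 2. Mixed glia were grown to confluence, microglia were shaken off, and the layer left was further shaken to remove oligodendrocyte precursors and replated as astrocytes, so each group is a purified culture that can hold other glia. The animals were wild-type, and all groups were changed to the same serum-free medium and then kept for 24 h, with fibrils or, in the control groups, without. The other 6 libraries, with Aβ40 fibrils, share the control libraries and entered the fit. Whether replicates are separate cultures is not stated, so the p-values measure the spread between these samples, which may be technical.

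Aβ42 is the aggregation-prone peptide of the amyloid plaques of Alzheimer's disease. Microglia are the resident macrophages of the brain, take up fibrils through scavenger, Toll-like and TREM2 receptors and degrade them in lysosomes, while astrocytes supply neurons with metabolites, clear glutamate and potassium and answer inflammatory signals with a reactive state. In both cell types NF-kB drives the rapid transcription of cytokines and chemokines, interferons act through STAT factors on antiviral and antigen-presentation genes, NRF2 drives antioxidant genes through an antioxidant element, and the hypoxia factor HIF-1 drives glycolysis.

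Counts on genes of the 12 libraries ranged from 3674043 to 14839572 a library in astrocytes and from 2613723 to 22274367 in microglia, where 3 counts, taken as the detection limit, stand for 0.193 to 0.785 and 0.147 to 1.31 CPM, the counts scaled to a common library size, and intervals cover counting error and the spread of the libraries alone. The cell-type labels fitted the defining markers: 15 microglia markers summed to 13798 to 15496 CPM in control microglia and 598 to 676 CPM in control astrocytes, and 12 astrocyte markers to 308 to 358 and 8687 to 10572 CPM. With Aβ42 the microglia markers fell to 5173 to 7965 CPM in microglia and to 181 to 199 CPM in the astrocyte cultures, where 13 of the 15 fell, and none of the microglia and astrocyte markers was at 0 in all libraries of a group. Some genes described below are themselves in these sums, so a sum is not separate from their own values. They are Tyrobp, Itgam, C1qa and Fcer1g for microglia and Sox9, Aldoc and Gja1 for astrocytes. Col1a1 and Dcn are likewise in the fibroblast sum given below. In bulk RNA, fewer microglia in an astrocyte culture and less RNA per microglial cell cannot be told apart. Astrocyte control replicate 2 and microglia Aβ42 replicate 1 stood apart, with correlations to the other replicates of at most 0.954 and 0.969, and microglia Aβ42 replicate 1 was the shallowest of the 12 libraries. Values below are CPM scaled by TMM in the order of replicates 1 to 3, a response is a log2 fold change fitted by edgeR, with its SE after ±, and its adjusted p is that of the quasi-likelihood F-test in edgeR, corrected by Benjamini and Hochberg's method for the 11581 genes.

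The response to Aβ42 differed between the cell types for 4314 genes (37.3% of the tested genes, adjusted p under 0.05), with 2078 higher in astrocytes (17.9%) and 2236 lower (19.3%). In astrocytes 2285 genes rose (19.7%) and 2503 fell (21.6%), and in microglia 2879 rose (24.9%) and 2641 fell (22.8%). Opposite ways, with both responses and their difference past the test, went 738 genes (6.37%). Of these 329 rose in astrocytes and fell in microglia (2.84%) and 409 did the reverse (3.53%). In 590 of the 738 the 3 control and 3 Aβ42 libraries did not overlap in either cell type, as in 1713 of the 4314. Since the 738 had passed the test in both cell types, the 590 are no separate evidence. The share over all tested genes was not counted. At a change of at least 2-fold in each cell type 186 genes remained (1.61%), 54 higher in astrocytes (0.466%) and 132 higher in microglia (1.14%). A response in 1 cell type alone, of at least 2-fold with the 95% interval of the other cell type's response inside 1.5-fold, was met by 156 genes in astrocytes (1.35%), of which 80 rose (0.691%) and 76 fell (0.656%), and by 272 in microglia (2.35%), of which 114 rose (0.984%) and 158 fell (1.36%). Another 386 genes rose (3.33%) and 337 fell (2.91%) in both cell types by different amounts, and 2433 of the 4314 met none of these rules. With upper-quartile scaling, which moved the median difference of all genes from -0.04 to -0.21 (log2), 1560 of 4456 genes were higher in astrocytes (35.0% against 48.2%), the opposite genes split into 197 and 518, the astrocyte genes into 66 up and 105 down and the microglia genes into 147 up and 134 down. Without the 2 libraries that stood apart the counts were 6531, 1521, 207 and 575, among them 4166 of the 4314 and 705 of the 738.

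**Figure D1:**
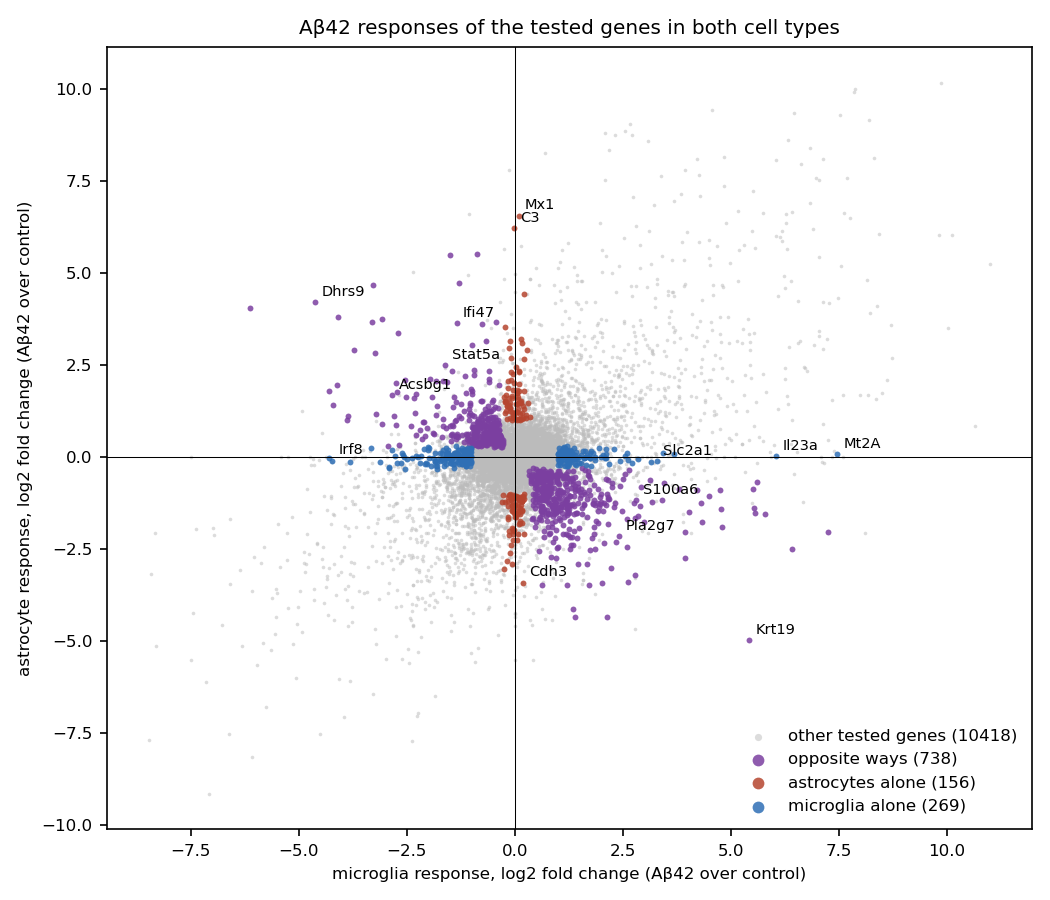
Each point is 1 of the 11581 tested genes, with the microglia response on the x axis and the astrocyte response on the y axis, both as log2 fold change of Aβ42 over control (n = 3 libraries a group). The 738 opposite genes (purple) lie in the upper left and lower right, the 156 astrocyte genes (red) along the vertical axis line and the microglia genes (blue) along the horizontal one. The 3 genes that met both the opposite and the microglia rule are drawn as opposite, which leaves 269 blue points.

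Dhrs9, a short-chain dehydrogenase that oxidizes retinol and other alcohols, had the widest difference of the opposite genes named with every group above the detection limit. It rose in astrocytes from 6.28, 11.9 and 5.99 to 128, 140.0 and 160.5 CPM and fell in microglia from 193, 217 and 220.2 to 9.17, 8.41 and 8.52 CPM. The astrocyte libraries with Aβ42 thus came near the level of control microglia, and microglia with Aβ42 came near that of control astrocytes. Control and Aβ42 libraries did not overlap within either cell type, which the rule that named the gene required. The responses were 4.21 ± 0.19 (adjusted p = 3.58e-12), a rise of 18.5-fold, and -4.61 ± 0.18 (adjusted p = 7.57e-13), a fall of 24.5-fold, and their difference was 8.82 ± 0.26 (adjusted p = 7.83e-14). The summed microglia markers fell in the same astrocyte cultures in which Dhrs9 rose, and the part of microglia in that rise was not tested.

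The promoters of Dhrs9 and of the strongest abundant gene of the reverse direction, Pla2g7, are shown because the members of both directions were read for the same motifs, followed by those of Parp14, Ifi47 and Mt2A, described below. Each is the 250 bases before the RefSeq start site in assembly GRCr8 (chr3:74555435-74555684, strand + for Dhrs9; chr9:24901748-24901997, strand - for Pla2g7; chr11:78407884-78408133, strand + for Parp14; chr10:33798494-33798743, strand + for Ifi47; chr19:10838709-10838958, strand - for Mt2A), 5′ to 3′ on the gene's strand, and capitals mark motifs found on either strand. The counts were made on rn5, and the windows were matched by symbol.
Dhrs9: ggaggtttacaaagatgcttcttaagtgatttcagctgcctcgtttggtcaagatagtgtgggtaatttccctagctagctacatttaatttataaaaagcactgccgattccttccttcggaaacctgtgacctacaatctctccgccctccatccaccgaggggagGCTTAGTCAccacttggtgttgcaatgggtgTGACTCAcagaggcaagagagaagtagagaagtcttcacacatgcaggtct
Pla2g7: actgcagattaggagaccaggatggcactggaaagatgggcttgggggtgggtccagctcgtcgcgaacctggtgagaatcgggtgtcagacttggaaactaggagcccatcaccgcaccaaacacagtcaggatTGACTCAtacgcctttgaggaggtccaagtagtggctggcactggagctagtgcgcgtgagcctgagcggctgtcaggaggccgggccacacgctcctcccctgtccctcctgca
Parp14: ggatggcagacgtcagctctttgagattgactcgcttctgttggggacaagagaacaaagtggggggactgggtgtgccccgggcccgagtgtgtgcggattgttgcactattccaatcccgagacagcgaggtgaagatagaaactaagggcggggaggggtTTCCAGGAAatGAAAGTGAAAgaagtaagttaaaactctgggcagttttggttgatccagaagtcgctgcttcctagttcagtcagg
Ifi47: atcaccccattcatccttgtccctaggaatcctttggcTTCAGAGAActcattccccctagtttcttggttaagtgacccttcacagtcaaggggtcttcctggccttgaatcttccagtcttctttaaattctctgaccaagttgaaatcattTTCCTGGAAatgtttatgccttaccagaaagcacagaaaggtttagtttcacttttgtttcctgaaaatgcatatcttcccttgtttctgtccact
Mt2A: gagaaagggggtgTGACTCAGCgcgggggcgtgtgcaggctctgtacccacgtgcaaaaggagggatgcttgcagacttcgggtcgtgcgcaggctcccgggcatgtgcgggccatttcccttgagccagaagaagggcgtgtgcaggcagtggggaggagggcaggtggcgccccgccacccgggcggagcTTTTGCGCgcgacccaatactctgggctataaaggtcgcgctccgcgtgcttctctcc

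The motifs were searched on both strands in windows of 250 bases before to 50 after the start and were AP-1 (TGANTCA, in 7.33% of all 33469 RefSeq promoter windows of that length), the antioxidant element (TGACNNNGC, 12.1%), which can overlap AP-1, the interferon-gamma activated site GAS (TTCNNNGAA, 8.87%), the interferon-stimulated response element ISRE (GAAA, any 2 bases, GAAA; 3.92%), E2F (TTTNGCGC, 1.28%) and NF-kB (4.18%). In Dhrs9 the capitals are an antioxidant element 82 to 74 bases and an AP-1 motif 51 to 45 bases before the start, and in Pla2g7 an AP-1 motif 115 to 109 bases before it. Parp14 held a GAS and an ISRE, Ifi47 held 2 GAS, and Mt2A held overlapping AP-1 and antioxidant motifs and an E2F motif. Of the 20 opposite genes named by rule 11 had a promoter entry, and 2 of these (Dhrs9 and Pla2g7) held AP-1, 2 (Dhrs9 and Hrk) the antioxidant element and none a GAS, ISRE, E2F or NF-kB motif. These matches describe the windows and are not measured sites.

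The other genes with the widest reversal upwards in astrocytes were less abundant. Zbp1, a sensor of Z-form nucleic acids that can start necroptosis, rose in astrocytes from 0.785, 0.898 and 0.781 to 10.3, 11.7 and 8.78 CPM and fell in microglia from 61.6, 35.6 and 61.0 to 4.37, 4.47 and 6.70 CPM, with a difference of 6.95 ± 0.51 (adjusted p = 9.65e-10). Zc3h12d, of a family of RNases that destabilize inflammatory transcripts, responded by 2.89 in astrocytes and -3.71 in microglia. Col14a1, a fibril-associated collagen, rose in astrocytes from 11.0, 12.6 and 11.3 to 83.0, 80.0 and 81.0 CPM and fell in microglia from 7.47, 9.71 and 5.56 to 0.873, 0.983 and 0.520 CPM. Cd1d1, which presents lipid antigens, responded by 2.09 in astrocytes and -2.53 in microglia, and Tnfsf4, the ligand of the T-cell receptor OX40, by 1.99 in astrocytes and -2.74 in microglia. Tnfsf4 was close to the detection limit, at 0, 1 and 7 counts in control astrocytes and 0, 8 and 1 counts in microglia with Aβ42. In each of these genes no library with Aβ42 overlapped a control in either cell type, which the rule that named them required. Control microglia held 64.2 times the CPM of control astrocytes for Zbp1, 19.0 for Zc3h12d and 14.01 for Cd1d1, while the microglia markers fell in the astrocyte cultures. The part of microglia in these astrocyte rises was not tested. The same rule named Adamts18, Spns3 and Myh3, each with a group at the detection limit: Adamts18 read 0, 0 and 0 CPM in control astrocytes and 0.129, 0.287 and 0.231 CPM with Aβ42, too near 0 for a fold, Spns3 fell in microglia from 0.655, 0.216 and 1.01 to 0, 0 and 0.0651 CPM, and Myh3 rose in astrocytes from 0.262, 0 and 0.195 to 2.25, 2.11 and 1.04 CPM.

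Among the 186 genes, 31 had a mean of at least 10 CPM in every group and no overlap in either cell type, 21 of them higher in astrocytes, and this filter was chosen after the values were seen. Acsbg1, a synthetase that activates long-chain fatty acids, rose in astrocytes from 190.5, 159.9 and 229 to 619.6, 623 and 623 CPM and fell in microglia from 92.7, 83.3 and 111 to 13.5, 12.5 and 14.4 CPM. Stat5a, a transcription factor downstream of cytokine receptors, rose in astrocytes from 20.7, 16.6 and 20.6 to 118, 115 and 93.5 CPM and fell in microglia from 56.8, 54.0 and 51.3 to 21.8, 16.9 and 16.5 CPM. Il6r, the interleukin-6 receptor, rose in astrocytes from 17.3, 19.5 and 19.3 to 76.6, 85.8 and 72.2 CPM and fell in microglia from 173, 164 and 190.1 to 49.3, 48.3 and 52.3 CPM. For Stat5a and Il6r the 2 cell types exchanged order, since every control microglia library was above the control astrocytes and every astrocyte library with Aβ42 above the microglia with Aβ42, while Acsbg1 was higher in astrocytes both without and with Aβ42. Tcirg1, a subunit of the proton pump of lysosomes, moved in astrocytes from 50.8, 40.4 and 63.8 to 238, 216 and 184 CPM and in microglia from 389, 417 and 371 to 105, 144 and 146 CPM, with a difference of 3.59 ± 0.23 (adjusted p = 9.67e-10). Receptors and signalling genes of the set were Ifngr1, a chain of the interferon-gamma receptor (1.29 in astrocytes and -1.06 in microglia), Tlr3, a receptor of double-stranded RNA (1.19 in astrocytes and -2.30 in microglia), P2rx4, an ATP-gated channel (1.005 in astrocytes and -1.06 in microglia), Scarb1, a receptor of high-density lipoprotein (1.24 in astrocytes and -1.18 in microglia), and Pik3cd, a leukocyte phosphoinositide kinase (1.77 in astrocytes and -2.72 in microglia). Ifi47, an interferon-inducible GTPase, moved in astrocytes from 9.94, 12.6 and 13.5 to 151, 149.8 and 155 CPM and in microglia from 279.7, 226 and 318 to 80.8, 112 and 128 CPM.

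In the reverse direction Pla2g7, which degrades platelet-activating factor and oxidized phospholipids, fell in astrocytes from 511, 619 and 421 to 112, 115 and 121 CPM and rose in microglia from 188, 193 and 175 to 1119, 890.1 and 955 CPM, with a difference of -4.57 ± 0.20 (adjusted p = 1.30e-11). Lsp1, an actin-binding protein of leukocytes, fell in astrocytes from 65.4, 40.4 and 63.4 to 12.4, 11.8 and 8.90 CPM and rose in microglia from 142, 132 and 135 to 693, 456 and 567 CPM. S100a6, a calcium-binding protein, fell in astrocytes from 142, 46.7 and 90.6 to 41.99, 38.1 and 42.8 CPM and rose in microglia from 25.4, 22.0 and 21.8 to 175, 139.8 and 176 CPM. The groups did not overlap, which the selection of these genes required, but for S100a6 the control library that stood apart was close to the astrocyte libraries with Aβ42. Plec, which links intermediate filaments to other cytoskeleton, moved in astrocytes from 1142, 699.5 and 1307 to 525, 478 and 411 CPM and in microglia from 82.0, 99.9 and 60.0 to 273, 388 and 429.6 CPM. Ahnak, a large scaffold protein, responded by -1.12 in astrocytes and 1.503 in microglia, S100a4 by -1.18 in astrocytes and 1.83 in microglia and Cdt1, a factor that licenses DNA replication, by -1.28 in astrocytes and 1.36 in microglia. Fgfbp1, a carrier of fibroblast growth factors, read 4.97, 3.82 and 8.59 CPM in control astrocytes and 1.03, 0.574 and 0.231 CPM with Aβ42 and responded by -3.20 in astrocytes and 2.79 in microglia. Hrk, a pro-apoptotic protein of the BCL2 family, responded by -3.40 in astrocytes and 2.61 in microglia.

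Krt19, a keratin, fell in astrocytes from 14.4, 11.0 and 14.3 to 0.322, 0.479 and 0.462 CPM and rose in microglia from 0, 0.216 and 0 to 2.18, 2.51 and 3.64 CPM, where the control libraries held 0, 1 and 0 counts, so that no fold is given for microglia. Plb1, a phospholipase, fell in astrocytes from 16.2, 18.2 and 19.6 to 2.96, 4.50 and 1.96 CPM and was at 0 in all control microglia, where it rose at least 2.06-fold against a limit of 3 counts in each library, to 0.873, 0.885 and 1.43 CPM. Gna14, PCOLCE2, Cd7 and Mchr1, named by the same rule, also had control microglia at the limit, with astrocyte responses of -2.76, -2.46, -2.32 and -3.01. Of the 409 genes that fell in astrocytes and rose in microglia, 94 had at least 10 times the CPM in control astrocytes and 18 at least 10 times in control microglia, and of the 329 of the other direction 43 had at least 10 times in control microglia. Over all tested genes 662 of 11581 had at least 10 times the CPM in control microglia, and the share for control astrocytes was not counted.

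**Figure D2:**
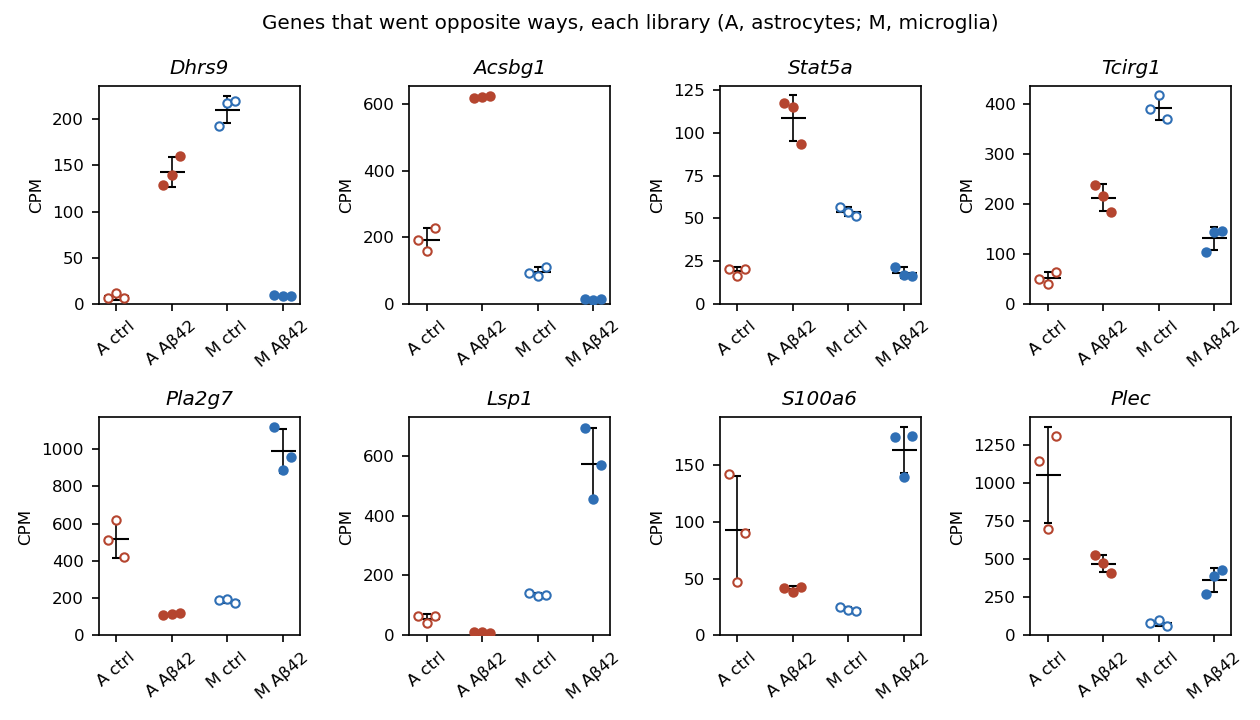
CPM of 8 opposite genes in each library (y axis) for astrocytes (A, red) and microglia (M, blue), control (open) and Aβ42 (filled), with the mean and SD of 3 libraries in black. Dhrs9, Acsbg1, Stat5a and Tcirg1 rose in A and fell in M, and Pla2g7, Lsp1, S100a6 and Plec fell in A and rose in M.

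Genes that rose in astrocytes alone included antiviral effectors and complement. Mx1, an interferon-induced GTPase that blocks viruses, rose in astrocytes from 11.3, 19.8 and 10.8 to 1188, 1286 and 1345 CPM (6.55 ± 0.24, adjusted p = 6.52e-13), while microglia held 578, 343 and 586 CPM without and 416, 527 and 667 CPM with Aβ42, a response of 0.10 (95% interval -0.34 to 0.53). C3, the central complement component, rose in astrocytes from 31.9, 44.7 and 38.6 to 2815, 2824 and 2882 CPM (6.20 ± 0.13, adjusted p = 1.38e-15), and microglia held 3040.5, 2184 and 3005 CPM and 2584, 2791 and 2732 CPM, a response of -0.02 (95% interval -0.29 to 0.24). The astrocytes rose for C3 to a level that microglia held with and without fibrils, and for Mx1 above it. Dhx58, a regulator of RNA sensing, responded in astrocytes by 4.41 ± 0.19, Cxcl16, a chemokine, by 3.52 ± 0.14, Parp14, an interferon-induced ADP-ribosyltransferase, by 3.16 ± 0.16, and Lmo2, a transcriptional adaptor, by 3.09 ± 0.12. Tmem106a (3.19 ± 0.19) and Ttc39b (2.96 ± 0.19) completed the 8 of the rule, and the microglia responses of these 8 genes lay between -0.23 and 0.22.

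Genes that fell in astrocytes alone were led by Cdh3, the cell adhesion molecule P-cadherin, which fell from 22.2, 23.4 and 22.8 to 1.55, 2.58 and 2.43 CPM while microglia held 50.7, 57.6 and 46.7 CPM and 68.6, 54.1 and 57.1 CPM. Tyrobp, the signalling adaptor of TREM2, fell in astrocytes from 31.9, 31.7 and 29.4 to 4.89, 3.83 and 1.96 CPM and read 542, 449 and 579 CPM in control and 441, 407 and 481 CPM in Aβ42 microglia. Was, an actin regulator of blood cells, responded by -2.84 in astrocytes and -0.18 in microglia. Control microglia held 16.9 times the CPM of control astrocytes for Tyrobp and 21.6 times for Was, and the summed microglia markers fell in the same astrocyte cultures from 598 to 676 to 181 to 199 CPM. The part of that fall in these responses was not tested. Lypd1, which modulates nicotinic receptors (-2.90 in astrocytes and -0.06 in microglia), and Cit, a kinase of cytokinesis (-2.62 in astrocytes and -0.11 in microglia), were higher in control astrocytes than in control microglia. Neuronal markers of the astrocyte cultures moved from 481 to 584 to 286 to 294 CPM and oligodendrocyte markers from 2074 to 3158 to 1931 to 2065 CPM, and their part was not tested either.

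Genes that rose in microglia alone included metal, redox and glucose genes. Mt2A, a metallothionein that binds zinc and copper, read 1.70, 2.59 and 1.69 CPM in control microglia and 311, 306 and 414 CPM with Aβ42, a mean rise of 177-fold (7.46 ± 0.33, adjusted p = 2.36e-13), while astrocytes held 471, 265 and 311 CPM and 326, 396 and 379.6 CPM (0.07 ± 0.19). Microglia with Aβ42 thus reached the level that astrocytes held with and without fibrils. Il23a, the p19 subunit of interleukin-23, rose in microglia from 0.655, 0.432 and 0.506 to 32.3, 34.0 and 44.5 CPM and read 2.35, 2.69 and 2.08 CPM in control and 1.55, 3.16 and 2.43 CPM in Aβ42 astrocytes. Srxn1, which restores oxidized peroxiredoxins, rose in microglia from 19.0, 16.2 and 14.3 to 144, 202 and 193 CPM and held 53.9, 62.9 and 56.4 CPM and 58.3, 60.7 and 68.3 CPM in astrocytes. Slc2a1, the glucose transporter GLUT1, rose in microglia from 123, 125 and 111 to 1209.6, 1055 and 1244 CPM and held 316, 158 and 291 CPM and 251, 244 and 215 CPM in astrocytes. For these 4 genes the microglia groups did not overlap. Fndc1 (0.07 in astrocytes and 3.68 in microglia), Bace2, a relative of the β-secretase (-0.14 in astrocytes and 3.16 in microglia), Plat, tissue plasminogen activator (-0.06 in astrocytes and 2.85 in microglia), and Fjx1 (-0.17 in astrocytes and 2.71 in microglia) followed. Neuronal markers moved in microglia from 317 to 346 to 521 to 570 CPM, oligodendrocyte markers from 2945 to 3269 to 3381 to 4545 CPM and fibroblast markers from 168 to 221 to 241 to 385 CPM, and their part in the microglia rises was not tested, while astrocyte markers were 308 to 358 and 294 to 342 CPM.

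Genes that fell in microglia alone were led by Apobec1, a cytidine deaminase that edits RNA, which fell in microglia from 117, 100.4 and 132 to 6.99, 5.26 and 6.18 CPM and held 29.3, 41.5 and 26.4 CPM and 33.2, 30.3 and 30.2 CPM in astrocytes. Irf8, a transcription factor that microglia need for their development, fell in microglia from 207, 168 and 226 to 12.2, 9.59 and 11.1 CPM (-4.23 ± 0.20, adjusted p = 8.31e-12) and read 13.9, 8.53 and 12.1 CPM in control and 12.6, 9.38 and 10.1 CPM in Aβ42 astrocytes (-0.10 ± 0.22). Microglia with Aβ42 thus read about the CPM of the astrocyte cultures. Slc46a3, a lysosomal transporter (-0.15 in astrocytes and -3.81 in microglia), P2ry1, an ADP receptor (0.25 in astrocytes and -3.33 in microglia), and Mpeg1, a pore-forming protein of macrophages (-0.15 in astrocytes and -3.11 in microglia), completed the 5 of the rule. Mpeg1 had 56.6 times the CPM in control microglia, and its response had an interval inside 1.5-fold in the astrocyte cultures in which the summed microglia markers fell. The part of microglia in its astrocyte values was not tested. Endothelial markers of the microglia cultures fell from 229.5 to 243 to 59.2 to 79.0 CPM, with Cldn5 at 0, and their part in these falls was not tested. Without microglia Aβ42 replicate 1 the microglia rule was met by 420 genes in place of 272.

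**Figure D3:**
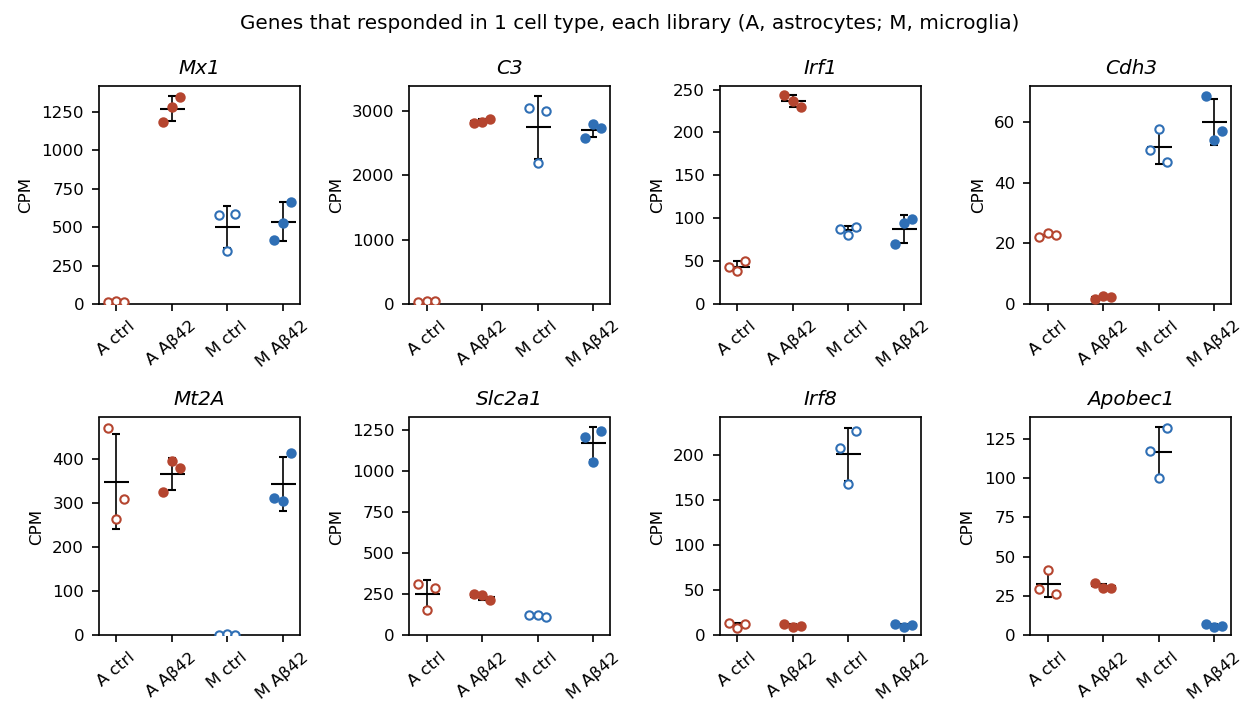
CPM in each library (y axis) of 8 genes that responded in 1 cell type, drawn for astrocytes (A, red) and microglia (M, blue), control (open) and Aβ42 (filled), with the mean and SD of 3 libraries in black. Mx1, C3 and Irf1 rose and Cdh3 fell in A with M within 1.5-fold, and Mt2A and Slc2a1 rose and Irf8 and Apobec1 fell in M with A within 1.5-fold.

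Gene lists of known function are described by counts and by the median response of their tested members, beside medians of 0.01 in astrocytes and 0.05 in microglia over all tested genes, of which 19.7% rose and 21.6% fell in astrocytes and 24.9% rose and 22.8% fell in microglia. Some medians moved with groups at the detection limit set to their bound. In microglia they became 3.29 for CC chemokines, 0.09 for growth factors, 0.09 for matrix proteins, 0.12 for glutamate, potassium and water handling and 0.20 for respiratory chain subunits. In astrocytes they became -1.86 for homeostatic microglia genes, 0.28 for nitric oxide and arginine genes and 2.87 for interferon-gamma GTPases and regulators. Those of 3 other lists are given with the list. The antiviral genes induced by interferon rose in astrocytes as a whole list. Of 32 tested members 32 rose and 0 fell in astrocytes, and 21 rose and 3 fell in microglia, with medians of 3.20 in astrocytes and 0.86 in microglia, and the difference was 29 higher and 1 lower in astrocytes. Oas2, which makes the messenger that activates RNase L, responded by 5.51 in astrocytes and -0.88 in microglia, Ifit2, which binds foreign RNA, by 5.65 in astrocytes and -0.24 in microglia, and with Zbp1 and Ifi47 Oas2 was 1 of the 3 members past the opposite rule. Control microglia exceeded control astrocytes for 29 of the 32, with a median of 99.3 against 17.2 CPM. Over all tested genes they did so for 5766 of 11581, with medians of 34.5 and 34.5 CPM. Of 22 members with a promoter entry 14 held an ISRE (63.6%) and 7 a GAS (31.8%), Parp14 and Ifi47 among the latter. Of 10 interferon-gamma GTPases and regulators 9 rose and 0 fell in astrocytes, and 6 rose and 1 fell in microglia (medians 3.05 in astrocytes and 0.99 in microglia). Irf1, a regulator of interferon-gamma genes, rose in astrocytes from 42.7, 38.0 and 50.2 to 244, 237 and 230.1 CPM and held 87.8, 80.9 and 90.0 and 69.4, 94.2 and 99.4 CPM in microglia.

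Most antigen-presentation genes rose further in astrocytes. Of 19 MHC class I and immunoproteasome genes 18 rose and 0 fell in astrocytes, and 13 rose and 0 fell in microglia, with medians of 2.30 in astrocytes and 0.80 in microglia, and 15 were higher in astrocytes by the difference. RT1-S3 responded by 2.91 in astrocytes and 0.38 in microglia and the immunoproteasome subunit Psmb10 by 2.65 in astrocytes and 0.13 in microglia. Of 10 MHC class II genes 6 rose and 0 fell in astrocytes, and 6 rose and 4 fell in microglia, the difference was 8 higher and 0 lower in astrocytes, and the medians were 7.58 in astrocytes and 1.39 in microglia, or 4.89 and -0.48 with groups at the detection limit set to their bound. Cd74, the invariant chain of class II, rose in astrocytes from 2.35, 4.49 and 2.02 to 862, 853 and 755 CPM and in microglia from 72.0, 63.9 and 85.5 to 111, 118 and 130.5 CPM. The class II chain RT1-Da responded by 8.85 in astrocytes and 2.54 in microglia, and RT1-Ba read 0, 0.225 and 0.195 CPM in control and 102, 95.9 and 89.8 CPM in Aβ42 astrocytes. Ctss, the protease that trims the invariant chain, fell in microglia (-0.18 in astrocytes and -2.05 in microglia). MHC genes are near-identical copies in places, so reads may be shared between them. Of 13 STAT and SOCS genes 10 rose and 0 fell in astrocytes, and 7 rose and 2 fell in microglia: Stat2, an interferon factor, responded by 2.43 in astrocytes and 0.73 in microglia, and Socs3, an inhibitor of cytokine signalling, by 1.01 in astrocytes and 6.41 in microglia.

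NF-kB subunits and their feedback inhibitors rose further in astrocytes. Of 14 members 14 rose and 0 fell in astrocytes, and 12 rose and 1 fell in microglia, the medians were 2.65 in astrocytes and 1.38 in microglia, and 10 differed upwards in astrocytes and 0 downwards. Rela, the p65 subunit, moved by 1.33 in astrocytes and -0.38 in microglia, Nfkbiz, an inducible IkB protein, by 4.22 in astrocytes and 1.64 in microglia, and Nfkbie by 3.09 in astrocytes and 0.58 in microglia. Chemokines and cytokines rose in both cell types and their differences went both ways. Of 13 CXC chemokines 11 rose and 0 fell in astrocytes, and 12 rose and 0 fell in microglia, with differences 6 higher and 3 lower in astrocytes (medians 6.36 in astrocytes and 2.72 in microglia, the former 6.26 at the bounds), and of 13 CC chemokines 9 rose and 1 fell in astrocytes, and 11 rose and 0 fell in microglia, with 2 higher and 2 lower (medians 3.69 in astrocytes and 3.57 in microglia). Cxcl12, a chemoattractant of many leukocytes, responded by 2.20 in astrocytes and 4.16 in microglia, and Cxcl17 and Cxcl13 rose in astrocytes from 0, 0.449 and 0.195 to 73.6, 75.0 and 71.5 CPM and from 0, 0.225 and 0.0651 to 37.0, 42.8 and 46.8 CPM. Ccl6 was the opposite member, moving in astrocytes from 9.42, 9.21 and 7.81 to 3.80, 4.21 and 2.77 CPM and in microglia from 53.2, 50.3 and 72.7 to 280.3, 225 and 235 CPM, and Ccl3 responded by 4.69 in astrocytes and 3.29 in microglia. Of 21 inflammatory cytokines 14 rose and 1 fell in astrocytes, and 17 rose and 2 fell in microglia, with 4 higher and 4 lower (medians 2.92 in astrocytes and 3.27 in microglia, the former 1.48 at the bounds). Il1b (7.09 in astrocytes and 4.28 in microglia) and its antagonist Il1rn (6.83 in astrocytes and 3.23 in microglia) differed upwards in astrocytes, and Il23a and Clcf1 (0.72 in astrocytes and 4.23 in microglia) downwards. Control astrocytes held only 1, 5 and 11 counts of Il1b and 2, 14 and 23 counts of Il1rn. With Aβ42 Il1b read 1595, 1085 and 803 counts in astrocytes and 11625, 86025 and 81646 counts in microglia.

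Transcription factors and receptors upstream of these genes were less uniform. Of 19 AP-1 and immediate early factors 7 rose and 6 fell in astrocytes, and 10 rose and 4 fell in microglia (medians -0.02 in astrocytes and 0.80 in microglia), and Fos fell in astrocytes and rose in microglia (-0.49 in astrocytes and 0.80 in microglia) while Fosl1 rose in both (1.37 in astrocytes and 4.91 in microglia). For Fos the astrocyte control that stood apart lay below all astrocyte libraries with Aβ42. Of 6 C/EBP factors 4 rose and 0 fell in astrocytes, and 3 rose and 1 fell in microglia (medians 1.17 in astrocytes and 0.62 in microglia): Cebpb responded by 1.92 in astrocytes and 3.79 in microglia and Cebpa by 0.33 in astrocytes and -1.76 in microglia, the latter past the test in microglia. Of 15 Toll-like receptors and co-receptors 5 rose and 6 fell in astrocytes, and 3 rose and 10 fell in microglia, and 7 were higher in astrocytes by the difference (medians -0.15 in astrocytes and -0.87 in microglia). Tlr2, a receptor of lipoproteins and fibrils, responded by 3.61 in astrocytes and 0.57 in microglia, and the trafficking chaperone Unc93b1 went opposite ways (0.90 in astrocytes and -0.97 in microglia), as Tlr3 did. Of 14 leukocyte adhesion genes 4 rose and 5 fell in astrocytes, and 6 rose and 4 fell in microglia (medians -0.15 in astrocytes and 0.16 in microglia), and the integrin chains Itgam (-1.14 in astrocytes and 0.91 in microglia) and Itgal (-0.52 in astrocytes and 1.16 in microglia) fell in the astrocyte cultures and rose in microglia, with 27.3 and 41.4 times the CPM in control microglia. The part of the falling microglia markers in the integrin responses was not tested.

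**Figure D4:**
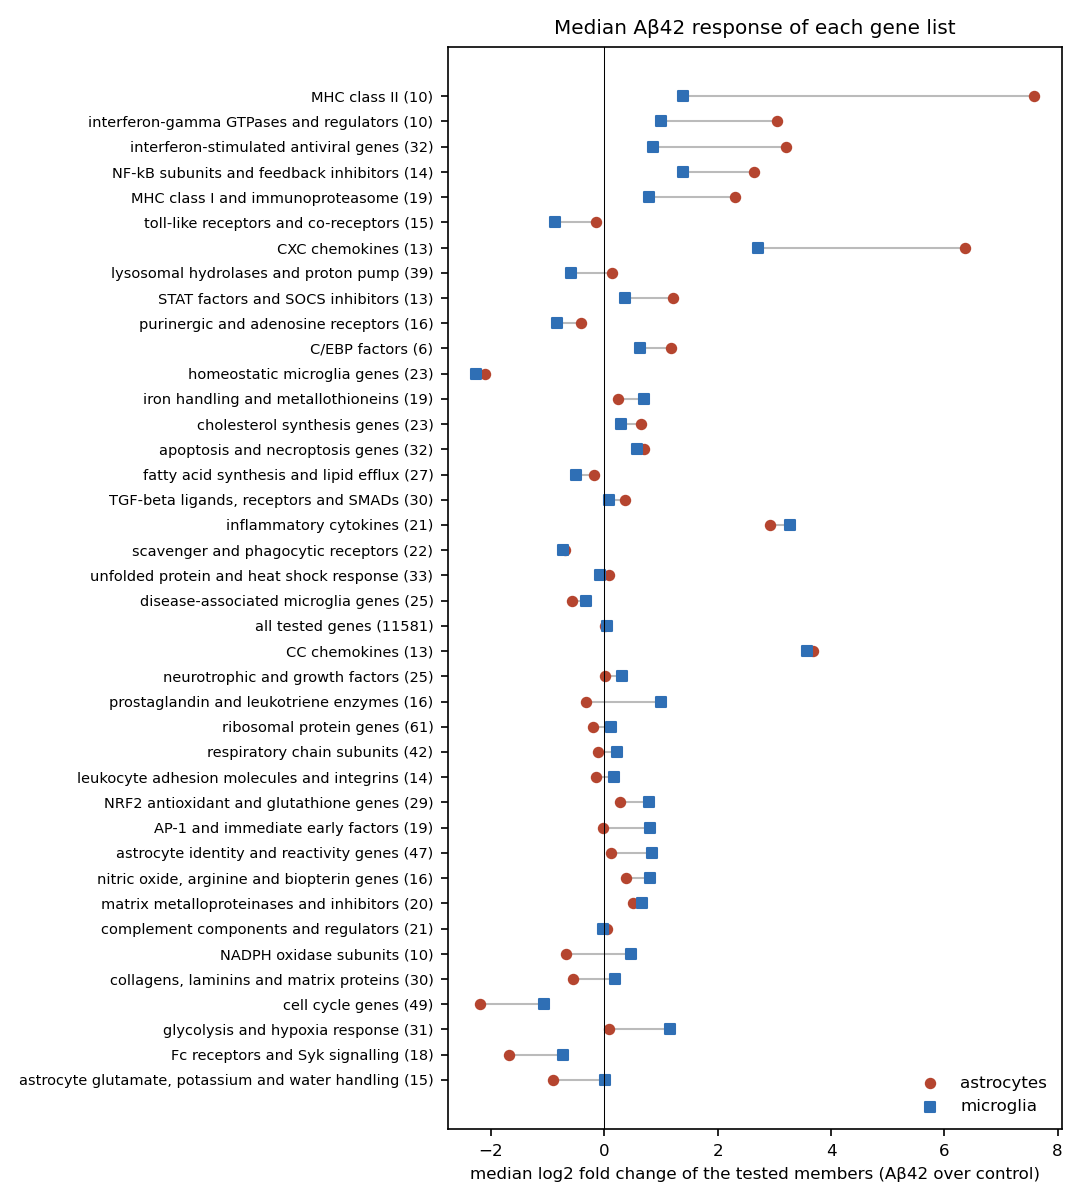
Median log2 fold change (x axis, Aβ42 over control) of the tested members of each gene list (y axis, number tested in brackets) for astrocytes (red circles) and microglia (blue squares), ordered by the median difference. MHC class II (7.58 and 1.39), the interferon lists and the NF-kB list lie further right in astrocytes, the glycolysis list lies right in microglia (1.16 against 0.09), and all tested genes lie near 0.

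Lysosomal genes fell in microglia and had no common direction in astrocytes. Of 39 hydrolases and proton pump subunits 11 rose and 6 fell in astrocytes, and 2 rose and 26 fell in microglia, the difference was 26 higher and 2 lower in astrocytes, 5 members went opposite ways and 8 fell in microglia alone (medians 0.14 in astrocytes and -0.60 in microglia). Ppt1, which removes palmitate from proteins, responded by -0.28 in astrocytes and -2.91 in microglia, cathepsin C (Ctsc) by 0.05 in astrocytes and -2.59 in microglia and the acid lipase Lipa by -0.02 in astrocytes and -1.89 in microglia. The opposite members included cathepsins B and H (Ctsb, 0.63 in astrocytes and -0.61 in microglia; Ctsh, 0.73 in astrocytes and -0.37 in microglia) and progranulin (Grn, 0.47 in astrocytes and -0.89 in microglia). Control and Aβ42 libraries of Ctsb, Ctsh and Grn did not overlap in either cell type, except those of Ctsh in microglia.

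Glycolysis and hypoxia genes rose in microglia. Of 31 members 8 rose and 8 fell in astrocytes, and 23 rose and 0 fell in microglia, with medians of 0.09 in astrocytes and 1.16 in microglia and a difference 2 higher and 22 lower in astrocytes. Egln3, a HIF prolyl hydroxylase, responded by 0.46 in astrocytes and 3.82 in microglia, Vegfa, the vascular growth factor, by -0.10 in astrocytes and 2.45 in microglia and the hexokinase Hk1 by -0.32 in astrocytes and 1.56 in microglia. Eno1, a glycolytic enolase, fell in astrocytes from 1243, 603 and 1161 to 724, 749.9 and 665 CPM and rose in microglia from 830.1, 843 and 876 to 2489.9, 2675 and 3098 CPM, although the astrocyte control that stood apart lay below all astrocyte libraries with Aβ42. Aldoc (-1.24 in astrocytes and 0.78 in microglia), Adm (-0.48 in astrocytes and 1.18 in microglia) and Hk1 also met the opposite rule. Of 29 antioxidant and glutathione genes 8 rose and 3 fell in astrocytes, and 21 rose and 3 fell in microglia, with medians of 0.27 in astrocytes and 0.78 in microglia and a difference 2 higher and 14 lower in astrocytes. Slc7a11, the cystine importer, rose in microglia from 11.5, 11.9 and 7.76 to 1143, 719 and 762 CPM and held 34.3, 54.3 and 42.7 CPM and 48.0, 53.1 and 67.5 CPM in astrocytes. The peroxiredoxins Prdx1 (-0.39 in astrocytes and 0.70 in microglia) and Prdx6 (-0.61 in astrocytes and 0.74 in microglia) and the malic enzyme Me1 (-0.37 in astrocytes and 1.63 in microglia) fell in astrocytes and rose in microglia, while Nfe2l2, which encodes NRF2, rose in astrocytes and fell in microglia (1.25 in astrocytes and -0.55 in microglia). Sod2, the mitochondrial superoxide dismutase, differed upwards in astrocytes (4.48 in astrocytes and 2.34 in microglia). Of 24 members with a promoter entry 6 held the antioxidant element (25%) and 5 AP-1 (20.8%).

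**Figure D5:**
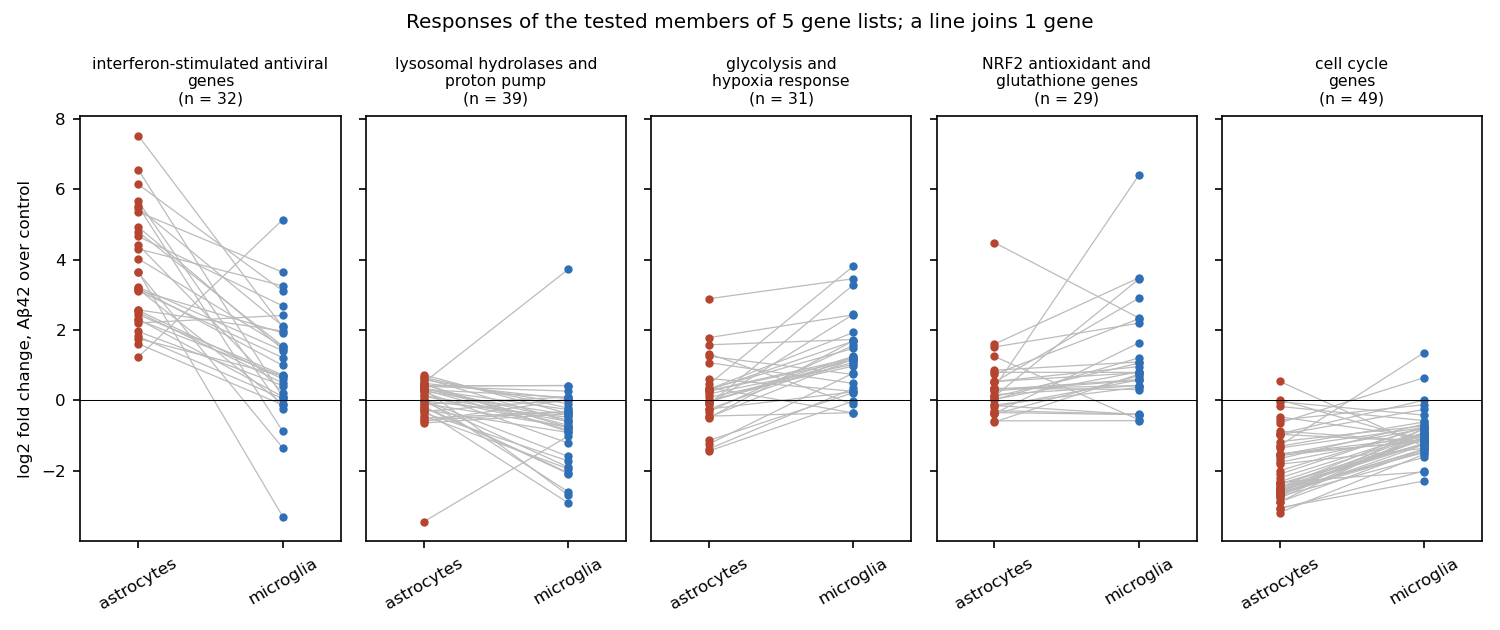
Log2 fold change (y axis, Aβ42 over control) of each tested member of 5 lists in astrocytes (red) and microglia (blue), with a grey line joining 1 gene. Most of the 32 antiviral genes and of the 39 lysosomal genes slope down to microglia, the 31 glycolysis genes mostly slope up, and the 49 cell cycle genes lie below 0 on both sides with few exceptions.

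Phagocyte genes were read beside the microglia markers, whose sum fell in the astrocyte cultures, and the part of that fall in the values of this paragraph was not tested. Of 10 NADPH oxidase genes 3 rose and 5 fell in astrocytes, and 5 rose and 1 fell in microglia (medians -0.69 in astrocytes and 0.48 in microglia), and Ncf1 (-1.66 in astrocytes and 0.41 in microglia) and Rac2 (-0.97 in astrocytes and 0.78 in microglia), cytosolic parts of the enzyme, went opposite ways, with 15.9 and 27.0 times the CPM in control microglia. Of 18 Fc receptor and Syk genes 1 rose and 12 fell in astrocytes, and 4 rose and 11 fell in microglia (medians -1.68 in astrocytes and -0.73 in microglia), and 16 had at least 10 times the CPM in control microglia. Over all tested genes 662 of 11581 did. Fcer1g (-3.09 in astrocytes and -0.38 in microglia) fell in the astrocyte cultures, but Fgr, a Src-family kinase, rose in both (3.19 in astrocytes and 0.53 in microglia). Of 23 homeostatic microglia genes 4 rose and 16 fell in astrocytes, and 1 rose and 18 fell in microglia (medians -2.11 in astrocytes and -2.27 in microglia), and Runx1 (2.66 in astrocytes and 0.21 in microglia) and P2ry6 (2.12 in astrocytes and -0.59 in microglia) rose in the astrocyte cultures. Of 25 disease-associated microglia genes 6 rose and 14 fell in astrocytes, and 6 rose and 13 fell in microglia, and their median difference changed sign under 7 alternatives, upper-quartile scaling among them. Trem2 fell in the astrocyte cultures from 16.2, 6.96 and 17.8 to 0.451, 0.0957 and 0.578 CPM and in microglia from 461, 471 and 553 to 224, 308 and 291 CPM, whereas Lpl, a lipoprotein lipase, fell more in microglia (-2.13 in astrocytes and -6.95 in microglia). Of 22 scavenger and phagocytic receptors 8 rose and 12 fell in astrocytes, and 7 rose and 11 fell in microglia (medians -0.70 in astrocytes and -0.72 in microglia): Axl (0.58 in astrocytes and -1.42 in microglia) and Scarb1 rose in astrocytes and fell in microglia, and Msr1 (-1.51 in astrocytes and 0.64 in microglia), Olr1 (-2.32 in astrocytes and 0.88 in microglia) and Scara3 (-0.97 in astrocytes and 0.99 in microglia) did the reverse. Of 16 purinergic and adenosine receptors 5 rose and 7 fell in astrocytes, and 5 rose and 8 fell in microglia (medians -0.41 in astrocytes and -0.83 in microglia), and the adenosine receptors Adora2a (0.16 in astrocytes and 7.39 in microglia) and Adora1 (-0.47 in astrocytes and 2.56 in microglia) rose in microglia.

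Complement was divided. Of 21 components and regulators 9 rose and 9 fell in astrocytes, and 8 rose and 9 fell in microglia, with differences 7 higher and 9 lower in astrocytes (medians 0.05 in astrocytes and -0.02 in microglia). C3 and Serping1, an inhibitor of C1 (3.65 in astrocytes and -0.44 in microglia), differed upwards in astrocytes, while the C1 protease C1s (3.16 in astrocytes and 5.15 in microglia) and the anaphylatoxin receptor C5ar1 (-1.74 in astrocytes and 0.75 in microglia) differed downwards, and C1qa (-7.07 in astrocytes and -3.95 in microglia) and C1qb (-6.44 in astrocytes and -3.28 in microglia) fell in both, with 14.3 and 6.51 times the CPM in control microglia. Cfd rose in astrocytes and fell in microglia (0.95 in astrocytes and -2.12 in microglia). In this paragraph C5ar1, Hpgds and Slc11a1 had 23.4, 44.6 and 15.97 times the CPM in control microglia, and the part of the falling microglia markers in these and in the C1q falls of the astrocyte cultures was not tested. Of 16 prostaglandin and leukotriene enzymes 4 rose and 5 fell in astrocytes, and 9 rose and 6 fell in microglia (medians -0.33 in astrocytes and 1.002 in microglia): thromboxane synthase Tbxas1 (-1.43 in astrocytes and 1.25 in microglia) and the prostaglandin D synthase Hpgds (-1.09 in astrocytes and 0.75 in microglia) fell in astrocytes and rose in microglia, and the lipoxygenase Alox15 fell in both (-1.68 in astrocytes and -6.60 in microglia). In astrocytes Alox15 was near the detection limit, at 3, 6 and 16 counts in control and 3, 3 and 5 counts with Aβ42. Of 16 nitric oxide and arginine genes 8 rose and 2 fell in astrocytes, and 11 rose and 0 fell in microglia (medians 0.38 in astrocytes and 0.80 in microglia). Nos2, the inducible nitric oxide synthase, rose in astrocytes from 0.785, 1.80 and 0.390 to 538, 533 and 506 CPM and in microglia from 50.04, 43.8 and 22.1 to 1587, 515 and 656 CPM, while the arginine transporter Slc7a2 (2.34 in astrocytes and 6.77 in microglia) and the arginine-recycling enzyme Ass1 (3.05 in astrocytes and 6.94 in microglia) rose more in microglia. Of 19 iron and metallothionein genes 8 rose and 3 fell in astrocytes, and 10 rose and 3 fell in microglia (medians 0.24 in astrocytes and 0.71 in microglia), with the metal transporter Slc11a1 (-0.69 in astrocytes and 1.63 in microglia) and the transferrin receptor Tfrc (-0.77 in astrocytes and 0.71 in microglia) falling in astrocytes and rising in microglia and ceruloplasmin (Cp, 2.06 in astrocytes and -0.15 in microglia) rising in astrocytes.

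Genes of astrocyte support functions fell more often than they rose in astrocytes. Of 15 glutamate, potassium and water handling genes 2 rose and 9 fell in astrocytes, and 5 rose and 5 fell in microglia (medians -0.91 in astrocytes and 0.01 in microglia), and the gap junction proteins Gja1 (-0.52 in astrocytes and 0.77 in microglia) and Gjb2 (-1.25 in astrocytes and 4.32 in microglia) and the bicarbonate transporter Slc4a4 (-1.46 in astrocytes and 1.05 in microglia) went opposite ways. For Gja1 the control and Aβ42 astrocyte libraries overlapped. Of 47 astrocyte identity and reactivity genes 21 rose and 18 fell in astrocytes, and 29 rose and 6 fell in microglia (medians 0.12 in astrocytes and 0.84 in microglia), and Vim (-1.22 in astrocytes and 0.47 in microglia), Sox9 (-0.90 in astrocytes and 0.63 in microglia), Hes1 (-0.62 in astrocytes and 2.11 in microglia), Aldoc, Ggta1 (-0.83 in astrocytes and 0.84 in microglia) and Tm4sf1 (-0.72 in astrocytes and 3.46 in microglia) fell in astrocytes and rose in microglia. The summed astrocyte markers of the astrocyte cultures were 8687 to 10572 CPM in control and 5489.5 to 5834 CPM with Aβ42, with 8 of 11 tested markers falling, and their part in these falls was not tested. Control microglia held 0.175 times the CPM of control astrocytes for Vim, 0.0359 for Sox9 and 0.117 for Hes1, and the summed astrocyte markers of the microglia cultures were 308 to 358 CPM without and 294 to 342 CPM with Aβ42. Of 30 collagens, laminins and matrix proteins 5 rose and 15 fell in astrocytes, and 8 rose and 4 fell in microglia (medians -0.55 in astrocytes and 0.19 in microglia), with Col1a1 (-1.23 in astrocytes and 0.56 in microglia) and Col11a1 (-1.46 in astrocytes and 0.96 in microglia) opposite and Dcn, a small proteoglycan, past the test in microglia (0.89 in astrocytes and 7.14 in microglia). For Col1a1 the microglia library with Aβ42 that stood apart lay below all control microglia in CPM. Fibroblast markers of the astrocyte cultures were 364 to 859 CPM in control, lowest in the library that stood apart, and 383 to 485 CPM with Aβ42, and their part was not tested.

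Of 20 matrix metalloproteinases and inhibitors 10 rose and 6 fell in astrocytes, and 11 rose and 5 fell in microglia (medians 0.51 in astrocytes and 0.66 in microglia): Mmp9 had the larger log2 rise in astrocytes (6.94 in astrocytes and 3.68 in microglia), the membrane protease Mmp14 rose more in microglia (0.57 in astrocytes and 4.10 in microglia), and Adamts1 (1.84 in astrocytes and -1.02 in microglia) and Adamts9 (-1.47 in astrocytes and 1.92 in microglia) went opposite ways, the former up and the latter down in astrocytes. The astrocyte rise of Mmp9 started near the detection limit, from 4, 3 and 14 counts in the control libraries. With Aβ42 Mmp9 read 1733, 1201 and 904 counts in astrocytes and 13392, 101216 and 92379 counts in microglia. Of 30 TGF-β pathway genes 10 rose and 5 fell in astrocytes, and 12 rose and 8 fell in microglia (medians 0.36 in astrocytes and 0.09 in microglia). Inhbb, a subunit of activin and inhibin, fell in astrocytes from 42.4, 46.5 and 42.2 to 11.98, 14.3 and 12.02 CPM and rose in microglia from 0.524, 0.648 and 0.506 to 6.99, 10.4 and 14.6 CPM, the co-receptor Tgfbr3 did likewise (-0.54 in astrocytes and 1.22 in microglia), and the receptor Bmpr2 did the reverse (0.56 in astrocytes and -0.89 in microglia). For Bmpr2 the astrocyte control that stood apart lay within the range of the astrocyte libraries with Aβ42. Of 25 neurotrophic and growth factors 7 rose and 7 fell in astrocytes, and 11 rose and 8 fell in microglia (medians 0.01 in astrocytes and 0.32 in microglia). Hgf, hepatocyte growth factor, rose in astrocytes from 1.57, 1.57 and 1.11 to 3.09, 2.30 and 3.12 CPM and fell in microglia from 9.56, 9.28 and 9.61 to 0.437, 0.885 and 0.390 CPM, Vegfb moved the same way (1.09 in astrocytes and -0.50 in microglia), and Igf2 the reverse (-1.36 in astrocytes and 1.002 in microglia).

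Cell cycle genes fell in both cell types and further in astrocytes. Of 49 members 1 rose and 45 fell in astrocytes, and 2 rose and 43 fell in microglia, with medians of -2.20 in astrocytes and -1.06 in microglia and a difference 3 higher and 32 lower in astrocytes. Ccnb2, a mitotic cyclin, responded by -2.88 in astrocytes and -0.91 in microglia and Rrm2, a subunit of ribonucleotide reductase, by -2.72 in astrocytes and -0.80 in microglia, while Pcna (-0.64 in astrocytes and 0.65 in microglia) and Cdt1 rose in microglia and Tpx2, a spindle protein, rose in astrocytes (0.54 in astrocytes and -1.31 in microglia). Of 32 apoptosis and necroptosis genes 20 rose and 0 fell in astrocytes, and 19 rose and 7 fell in microglia (medians 0.70 in astrocytes and 0.58 in microglia), and Zbp1, Ripk1 (0.38 in astrocytes and -0.54 in microglia), Gsdmd (1.26 in astrocytes and -0.59 in microglia), Apaf1 (0.57 in astrocytes and -0.57 in microglia) and Bcl2l11 (0.57 in astrocytes and -0.45 in microglia), which act in necroptosis, pyroptosis and mitochondrial apoptosis, rose in astrocytes and fell in microglia. Casp4, an inflammatory caspase, responded by 2.12 in astrocytes and 0.61 in microglia. For Tpx2 and Apaf1 the astrocyte control that stood apart lay at the level of astrocyte libraries with Aβ42. Of 23 cholesterol synthesis genes 16 rose and 0 fell in astrocytes, and 10 rose and 2 fell in microglia (medians 0.64 in astrocytes and 0.30 in microglia), with Hsd17b7 (1.77 in astrocytes and 0.52 in microglia) and the opposite member Stard4, a cholesterol carrier (1.23 in astrocytes and -0.57 in microglia). Of 27 fatty acid and lipid efflux genes 4 rose and 9 fell in astrocytes, and 4 rose and 15 fell in microglia (medians -0.19 in astrocytes and -0.51 in microglia): Acaca, which commits acetyl-CoA to fatty acids, fell in microglia (-0.03 in astrocytes and -1.68 in microglia), and Soat1, which esterifies cholesterol, went opposite ways (0.35 in astrocytes and -0.90 in microglia). Of 33 unfolded protein and heat shock genes 11 rose and 3 fell in astrocytes, and 7 rose and 9 fell in microglia (medians 0.08 in astrocytes and -0.08 in microglia), a list whose median difference of 0.17 was -0.01 with upper-quartile scaling. Hspb1, a small heat shock protein, fell in astrocytes (-1.82 in astrocytes and 0.20 in microglia), and Herpud1, of the degradation machinery of the endoplasmic reticulum, fell in microglia (0.23 in astrocytes and -1.02 in microglia).

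Of 42 respiratory chain subunits 0 rose and 4 fell in astrocytes, and 10 rose and 5 fell in microglia (medians -0.11 in astrocytes and 0.22 in microglia), and of 61 ribosomal protein genes 0 rose and 11 fell in astrocytes, and 4 rose and 1 fell in microglia (medians -0.19 in astrocytes and 0.12 in microglia). The difference passed the test for 6 and 4 of them, against 37.3% of all tested genes, and each such gene was lower in astrocytes, as for Rps19 (-0.51 in astrocytes and 1.68 in microglia). Among these few calls, those of Rpl4, Sdhc, Uqcrb, Ndufa10 and Rpl22 were lost under 12, 9, 4, 3 and 2 of 23 alternatives.

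Other genes rose or fell in both cell types. Asgr1, a lectin, rose in astrocytes from 3.14, 2.69 and 2.86 to 112, 112 and 103 CPM and in microglia, where all controls were at 0, to 17.9, 30.5 and 29.7 CPM, at least 50.5-fold, a bound that does not give the size of the difference from the astrocyte rise. Aqp3, an aquaglyceroporin, was likewise at 0 in control microglia and rose at least 26.8-fold, and responded in astrocytes by 3.51. Nov, a secreted matrix-associated protein, responded by 0.63 in astrocytes and 5.13 in microglia. Among falling genes Rasgrp3 (-1.06 in astrocytes and -4.42 in microglia), Blnk (-1.51 in astrocytes and -4.73 in microglia) and Pi16 (-0.86 in astrocytes and -4.80 in microglia) fell more in microglia and Fbln5, of elastic fibres, more in astrocytes (-3.43 in astrocytes and -0.60 in microglia). Some genes were detected in 1 cell type: 130 in astrocytes with all 6 microglia libraries at 3 counts or fewer, 99 of them past the test in astrocytes, and 123 in microglia with all 6 astrocyte libraries there, 94 of them past the test in microglia. Over all tested genes 19.7% rose and 21.6% fell in astrocytes, and 24.9% rose and 22.8% fell in microglia. Such genes passed the count filter largely through the cell type that held them, so these counts are no measure of a stronger response. Slc14a2, a urea transporter, fell in astrocytes from 13.1, 13.5 and 8.39 to 0.258, 0.383 and 0 CPM, and Sstr4, a somatostatin receptor, from 23.6, 24.9 and 19.6 to 0.773, 1.24 and 1.27 CPM. Ntsr2, a neurotensin receptor (-4.91), fell there too. Lhx4, a developmental transcription factor, was at 0 in control microglia and rose to 23.1, 17.2 and 24.7 CPM, at least 42.04-fold, and Il2ra, the interleukin-2 receptor α chain, rose in microglia by 7.12 ± 0.75, while Clec4a2 (-4.83) and Slc13a4 (-3.71) fell there.

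Of 21 tested genes that the study's own text discusses, which were chosen on these samples and are no independent evidence of direction, 18 rose and 1 fell in astrocytes, and 18 rose and 2 fell in microglia, and the difference was 10 higher and 4 lower in astrocytes. Cxcl2, a neutrophil chemokine, rose in astrocytes from 0, 0.225 and 0.260 to 81.5, 87.2 and 93.6 CPM and in microglia from 33.7, 30.2 and 25.1 to 2604, 1998 and 2538 CPM, a difference of 2.29 ± 0.56 (adjusted p = 4.11e-04). Gbp2 (3.25 in astrocytes and 1.39 in microglia) and Cfb (6.13 in astrocytes and 5.50 in microglia) also differed upwards in astrocytes, and Mmp12 (4.33 in astrocytes and 7.48 in microglia) downwards, a call lost without astrocyte control replicate 3 (adjusted p = 0.127). The rise did not differ past the test for Ccl2 (difference -0.61 ± 0.28, adjusted p = 0.0937), Cxcl1 (-0.32 ± 0.34, 0.498), Tnf (0.25 ± 0.40, 0.634) and C1r (-0.37 ± 0.15, 0.0682), which does not show that the responses were equal. The difference of C1r passed the test in 8 of 23 alternatives, other scalings among them, that of Ccl2 in 3 and that of Tnf without astrocyte control replicate 3. Lcn2 differed upwards in astrocytes, a call lost in 13 of 23 alternatives, other scalings and DESeq2 among them. Arg1, F13a1 and Fam110c had control libraries at the detection limit.

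The Aβ40 responses stand beside those of Aβ42, and since both were taken against the same control libraries no overlap between them is given. For Dhrs9 the Aβ40 response was 4.01 in astrocytes and -4.60 in microglia, beside 4.21 and -4.61 with Aβ42. For Pla2g7 it was -2.07 and 1.63, beside -2.16 and 2.41. For S100a6 it was -0.44 and 2.77, beside -1.18 and 2.82, and for Mx1 6.45 and 0.40, beside 6.55 and 0.10. For Mt2A it was -0.14 and 6.69, beside 0.07 and 7.46.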

How the data were processed

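RNA of 18 libraries was sequenced from poly(A)-selected stranded preparations. The submitters' processing notes name STAR, Salmon, DESeq2 and the rn5 assembly, and the authors deposited raw counts per gene, 1 table a library, with reads on no gene or on several genes as separate rows (26.4% to 34.2% of reads in astrocytes and 21.7% to 24.5% in microglia for the 12 libraries), which were left out. The 16704 symbols shared by the astrocyte (17307) and microglia (17327) files were joined, filtered with filterByExpr (minimum 10 counts) to 11581, scaled by TMM over 18 libraries and fitted with edgeR 4.0.16 (limma 3.58.1, R 4.3.3) by glmQLFit and glmQLFTest without covariates, with Benjamini-Hochberg adjustment. Replicate numbers come from the labels and did not pair the libraries (correlations of deviations -0.38 to 0.33). The detection limit of a group was 3 counts in each of its libraries. Scripts were tested on simulated counts. Alternatives were TMM within cell type, RLE, upper-quartile and library-total scaling, other count filters, DESeq2 1.42.0, the 12 libraries alone, replicate blocks and leaving out libraries. The members and gene lists were chosen with earlier results of these data known, and the set without both libraries that stand apart was added after seeing the data. Genes named by rule include 10 opposite genes in each direction, those whose smaller response of the 2 cell types was largest in size. They had 2-fold or more and no overlap of control and Aβ42 libraries in either cell type. Others were 8 rising and 5 falling in 1 cell type, and 4 in each class of shared direction or of detection in 1 cell type. From each list up to 4 members with the smallest p of the difference were named, with its opposite members. The genes of the study's text were named too. Promoters came from RefSeq tables of GRCr8, with entries for 174 of 248 named genes. Results of some genes are not reported here.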

Additional observations from a re-analysis of the deposited data

Results flagged for a closer look

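The difference between the cell types passed the test for 4314 genes, and 738 of them went opposite ways, so both counts are differences of a response between groups. Named opposite genes without a group at the detection limit differed, as astrocyte minus microglia log2 fold change, by 8.82 for Dhrs9, 6.95 for Zbp1, 6.60 for Zc3h12d, 6.04 for Col14a1, 4.73 for Tnfsf4 and 4.62 for Cd1d1. Of these Tnfsf4 was close to that limit in control astrocytes and in microglia with Aβ42, and its difference ranged from 4.18 to 6.54 over the alternatives. In the reverse direction the difference was -6.02 for Hrk, -5.99 for Fgfbp1, -4.57 for Pla2g7 and -4.41 for Lsp1. The difference itself was tested in each case by the interaction in edgeR's quasi-likelihood fit.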

How the results depend on the processing

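Of 260 named genes 241 kept the direction and the side of the threshold of their difference under every alternative that tested them, 17 lost or gained the call under some, and 2, neither called, changed sign: Tnf to -0.10 without astrocyte control replicate 2 (range over left-out libraries -0.10 to 1.79) and to -0.065 without both libraries that stand apart, and Cxcl1 to 0.26 without both libraries. Stricter or wider rules gave 2827 genes with a difference of at least 2-fold, 186 opposite genes at 2-fold in each cell type, and 530 astrocyte and 730 microglia genes with the other cell type within 2-fold. Without both libraries that stand apart the counts were 6531 differing, 1521 opposite and 575 microglia genes. Leaving out 1 library at a time gave 3723 to 5444 differing, 557 to 1067 opposite, 111 to 208 astrocyte and 194 to 420 microglia genes, the last without microglia Aβ42 replicate 1, and the cause was not tested. The replicate block, whose numbers do not pair the libraries, gave 4047 differing, 657 opposite, 149 astrocyte and 245 microglia genes. The lists' median differences were computed only for the other scalings and for the fits that left out 1 library. There they kept their sign throughout, except those of CC chemokines, disease-associated microglia, unfolded protein and the study's text genes. Depth limits genes near 3 counts a library, and of the 12 libraries microglia Aβ42 replicate 1 has the highest limit (1.31 CPM). DESeq2 called 4495 differing and 754 opposite genes.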
